A study of Mus musculus with 4 samples.

Results

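The zinc finger genes examined here were all mouse genes with symbols from Zfp700 to Zfp999, a whole number with nothing after it, without Zfp750 and Zfp990. The rule found 131 symbols and 132 gene identifiers, because the symbol Zfp783 belongs to 2 identifiers, out of 56980 genes in the data. A further 248 genes carried a Zfp number below 700 and served as the nearest comparison. Single-cell RNA-seq was collected from sorted dorsal skin of E16.5 embryos per the labels, in 2 control (Ctrl) and 2 triple knockout (TKO) libraries, each made from 1 embryo. The study's list of litters gives an earlier embryonic day for this experiment, and the labels were followed. Cells of the sort were positive for Epcam and α6 integrin, which mark epithelial cells attached to the basement membrane. Both groups carried floxed Suv39h1, floxed Setdb1 and a constitutive deletion of Suv39h2 (Suv39h1 f/f, Suv39h2-/-, Setdb1 f/f), and both received tamoxifen. TKO embryos also carried K14CreERT2, in which the keratin 14 promoter, active in basal keratinocytes, drives a Cre that tamoxifen switches on, and Ctrl embryos lacked it. Per the study, recombination in these TKO embryos was mosaic, so the values of a TKO library average over recombined and unrecombined cells. The study also states that each group of its sequencing experiments included both sexes. Sex was not a term in any fit here.

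The 3 targeted genes encode enzymes that place methyl groups on lysine 9 of histone H3 (H3K9me3), a mark of silent chromatin. Most proteins with arrays of C2H2 zinc fingers bind DNA through their fingers, each of which contacts a few bases. Many of them carry a KRAB domain, which recruits Trim28, which in turn recruits Setdb1, so that the bound site gains H3K9me3. Such proteins are known for silencing retroviral elements in the embryo, and their genes lie in clusters that expanded by duplication and are themselves known to be covered by H3K9me3. KRAB zinc finger genes are therefore both users of this pathway and, in several tissues, among the loci it covers.

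Counting is of unique molecular identifiers (UMIs), which count each captured molecule a single time at the 3′ end of the transcript, so levels of different genes need no division by length. Levels are given as CPM, the UMIs of a gene over all UMIs of the cells named, scaled to the same total in every library. After quality filters, 2843 and 2989 keratinocytes remained from the Ctrl embryos, and 1562 and 1795 from the TKO embryos, with 52251903 to 68252813 UMIs per library. The median keratinocyte was deeper in the TKO libraries (30073 and 28052 UMIs) than in the Ctrl libraries (21966 and 17329 UMIs). Keratinocytes were divided by marker genes into basal-like, differentiating-like and hair follicle-like cells, and cells outside the keratinocytes were mostly immune-like and fibroblast-like. Pairs of libraries shared 2 to 12 cell barcodes of 3804 to 5785. Setdb1 was at 67.9 and 58.2 CPM in Ctrl and at 39.5 and 42.5 CPM in TKO keratinocytes, with a log2 change of −0.64 ± 0.127 (SE) at an edgeR adjusted p of 0.047. Suv39h1 (log2 change −0.17, edgeR adjusted p = 0.488) and Suv39h2, deleted in both groups, (log2 change 0.29, edgeR adjusted p = 0.406) did not pass the test, and a 3′ count does not show whether a deleted exon is missing.

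The annotation (GENCODE vM39, build GRCm39) places 25 members on chromosome 7, 21 on chromosome 17, 15 on chromosome 4, 14 on chromosome 8, 13 on chromosome 2 and 12 on chromosome 13. A run was counted where at least 3 members started within 500 kb of the next, and 15 such runs held 86 members. A total of 128 members had a coding sequence, with a median of 11 C2H2 fingers and a range of 0 to 23. The core letters of a KRAB A box were found in 98 of these 128 (76.56%) and not in 30. The 4 members with no coding sequence were both Zfp783 identifiers, Zfp939 and Zfp996. Because neighbouring members are near-copies, part of their 3′ ends cannot be told apart by short reads: in 21 members, over 50% of the last 500 bases of transcript was shared with another gene.

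In Ctrl keratinocytes most members were low, and the highest were members with no KRAB core. The highest was Zfp706, a small zinc finger protein known from embryonic stem cells, at 370 and 284 CPM (327 ± 60.8, SD, n = 2). Zfp704 followed at 169 and 172 CPM, and then Zfp871 at 81.2 and 74.2, Zfp827 at 47.8 and 58.5, Zfp740 at 53.8 and 49.2 and Zfp771 at 42.9 and 46.3 CPM. Of these 6, Zfp827 and Zfp740 overlapped in the 2 Ctrl libraries, and the others were apart from their neighbours in the order. The 6 together made up 40.8% of the summed level of all members, and Zfp871, with 15 fingers, was the only KRAB member among them. The median member was at 5.94 CPM, with 44 members at 10 CPM or more, 61 between 1 and 10, and 27 below 1 CPM. Zfp969 and the pseudogene identifier of Zfp783 were the 2 with no UMI in the cells examined of any library.

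**Figure D1:**
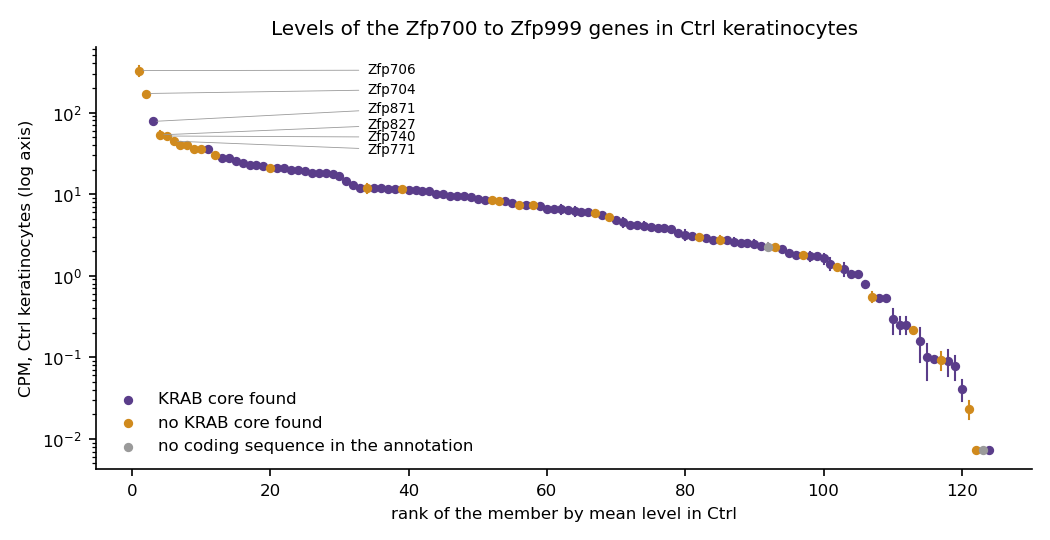
Mean level of each member in the 2 Ctrl libraries (points, with the range of both libraries as bars) in CPM on a log axis, against its rank, coloured by whether a KRAB core was found. Members with no core take 5 of the 6 highest places, and 27 of the 132 members lie below 1 CPM or at 0.

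The summed level of all members did not differ between genotypes beyond the spread of the libraries. It was 1832 and 1723 CPM in Ctrl and 1778 and 1790 CPM in TKO keratinocytes, and the groups overlapped. The KRAB members alone summed to 870 and 826 CPM in Ctrl and to 872 and 873 CPM in TKO keratinocytes, so both TKO values lay just above the Ctrl values, by less than the distance between the Ctrl libraries. When each cell was thinned to 5000 UMIs, a keratinocyte held on average 9.34 and 8.71 member UMIs in Ctrl and 9.03 and 9.02 in TKO. The genes below Zfp700 summed to 5100 and 5216 CPM in Ctrl and to 5007 and 4954 CPM in TKO keratinocytes, which did not overlap.

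A small number of members rose in TKO keratinocytes. UMIs were summed per library, tested across all genes with edgeR's quasi-likelihood test, and a gene was called where the p adjusted by Benjamini-Hochberg was under 0.05. Of the 115 members that passed the filter on low counts, 5 were raised and 0 lowered, against 4.21% of all 19969 genes tested raised and 2.55% lowered. The share of members raised, 4.35%, was near that of all genes. The median log2 change of the tested members was −0.13, beside −0.02 for all genes, and 41 of the 115 lay above 0. Zfp998, with 0 UMIs in Ctrl, passed the filter only through the TKO libraries, and without it 4 members were raised. DESeq2 called 10 members raised and 2 lowered, beside 7.79% and 5.58% of all genes, so the share raised was again near the background. All 5 raised members, Zfp998 among them, had a KRAB core. They were 5.68% of the 88 tested members with a core, beside 4.21% of all genes. Of the 26 tested members without a core, 0 were called (1 at an unadjusted p under 0.05, and 0 by DESeq2). Most tested members had a core, and the difference between members with and without a core was not tested. Of the 230 tested genes below Zfp700, 4 were raised and 3 lowered.

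Most other members moved little, and more of them lay lower in TKO than higher. The quartiles of the log2 change in keratinocytes were −0.32 and 0.13 over the members, beside −0.30 and 0.25 over all genes. In 48 of the 115 tested members (41.7%) both TKO libraries lay below both Ctrl libraries, against 27.4% of all genes, and in 28 (24.3%) both lay above, against 29.0% of all genes. The genes below Zfp700 were similar, with 35.2% below and 22.6% above. In non-keratinocytes, 35 of 103 tested members lay below and 14 above, against 17.2% and 21.7% of all genes. That sum differed in make-up between genotypes, with 83 and 125 immune-like cells in Ctrl and 283 and 422 in TKO. Within immune-like cells 18 of 85 tested members lay below and 14 above (12% and 26.6% of all genes), and within fibroblast-like cells 13 of 76 lay below and 12 above (13.7% and 17.9%). Zfp871 lay lower in both TKO libraries, at 81.2 and 74.2 CPM in Ctrl and 65.0 and 65.6 CPM in TKO keratinocytes (log2 change −0.27 ± 0.10, SE), as was Zfp740, at 53.8 and 49.2 against 43.7 and 44.2 CPM (−0.24 ± 0.104, SE). Neither passed the test (edgeR adjusted p = 0.177 and 0.221). Zfp704 lay higher in both TKO libraries, at 215 and 181 CPM (log2 change 0.20 ± 0.102, SE, at an edgeR adjusted p of 0.303), and Zfp706, at 264 and 347 CPM in TKO, overlapped between the groups. The median TKO cell was deeper in the 3 keratinocyte classes and over all non-keratinocytes. At an equal 5000 UMIs per cell the log2 changes of Zfp871 and Zfp740 in keratinocytes were −0.22 and −0.15.

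**Figure D2:**
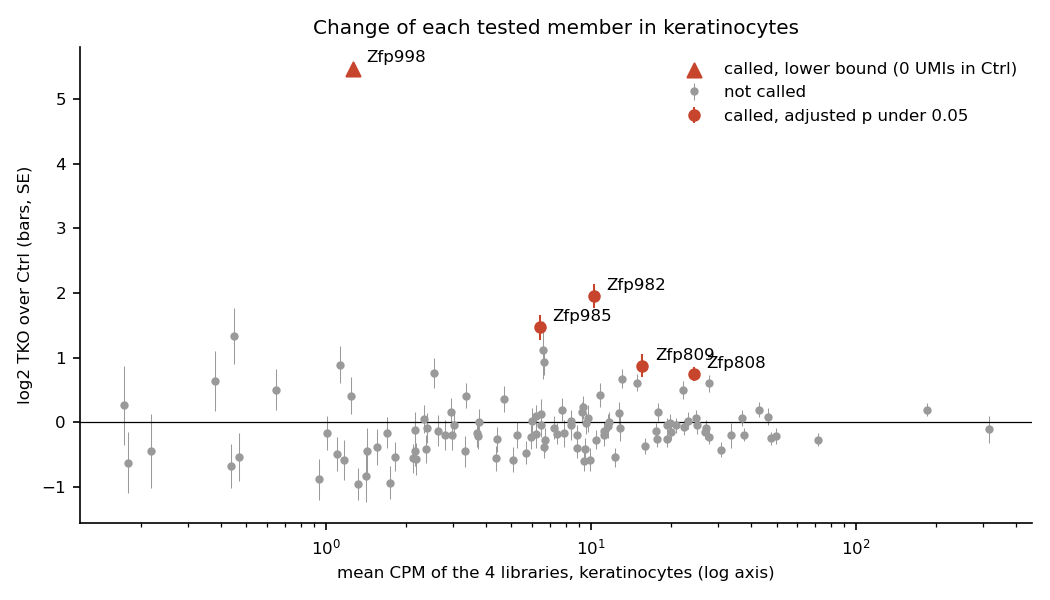
Log2 change of TKO over Ctrl in keratinocytes (bars, SE) against mean level in CPM on a log axis, for each tested member. Of the 5 members called (red), Zfp982 and Zfp985 stand above every uncalled member, whereas Zfp934, not called, lies above Zfp809 and Zfp808, and Zfp998 (triangle), which had 0 UMIs in Ctrl, is drawn at its lower bound.

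Zfp998 on chromosome 13 (66566173 to 66589226, minus strand) encodes a KRAB protein with 14 fingers, and was the member that went from no signal to signal. It had 0 and 0 UMIs in Ctrl keratinocytes and 121 and 149 UMIs in TKO keratinocytes, or 2.32 and 2.75 CPM. All TKO values were above all Ctrl values. With a floor of 3 counts per library, the lower TKO library was at least 44.2-fold higher than the higher Ctrl floor. Because the gene entered each test only through the TKO libraries, its values are given as a description. In basal-like cells the UMIs were 0, 0, 81 and 94, at least 24.9-fold higher, and in hair follicle-like cells 0, 0, 31 and 42, at least 12.9-fold higher. Of 56980 genes, 121 had 0 UMIs in both Ctrl libraries and at least 10 in a TKO library. With at least 100 in both TKO libraries there were 9, of which Zfp998 was the only member. Even in TKO the transcript was found in few cells: at 5000 UMIs per cell a UMI of Zfp998 was seen in 0.963% and 1.17% of keratinocytes, against 0 of 2820 and 0 of 2951 Ctrl keratinocytes, which allow a share of cells with a UMI of up to 0.106% and 0.102% at 3 counts. These limits and the intervals below cover counting error only. In TKO differentiating-like cells there were 3 and 5 UMIs, and the gene was too low there to be tested.

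Zfp982 and Zfp985, neighbours on the plus strand of chromosome 4, had the largest log2 changes among the raised members with UMIs in Ctrl. Zfp982 (chromosome 4, 147545583 to 147601280, 7 fingers) was counted at 270 and 253 UMIs in Ctrl, and at 765 and 975 UMIs in TKO keratinocytes. On the CPM scale it was at 3.96 and 4.41 in Ctrl and at 14.6 and 18 in TKO, with a log2 change of 1.95 ± 0.189 (SE) at an edgeR adjusted p of 0.00851. The TKO libraries were both over 3 times the Ctrl libraries. Zfp985 (147637679 to 147669658, 10 fingers) went from 3.65 and 3.09 CPM to 9.09 and 9.78 CPM, with a log2 change of 1.47 ± 0.195 (SE) at an edgeR adjusted p of 0.0179, again with no overlap. At 5000 UMIs per cell, the share of keratinocytes with a UMI of Zfp982 was 1.88% and 2.27% in Ctrl and 7.25% (95% exact binomial interval 6.01 to 8.66%) and 9.06% (7.77 to 10.5%) in TKO. In immune-like cells, which do not use the K14 promoter, that share was 1.20% and 2.42% in Ctrl and 2.84% and 2.88% in TKO. The Ctrl shares of keratinocytes lay within the range of the Ctrl immune-like cells. No level of RNA from outside the cells was estimated, so these Ctrl shares are not read as expression or as its absence. Both TKO shares of keratinocytes lay above all 4 immune-like shares. Before thinning, the median depth of immune-like cells was 14454 to 20086 UMIs. For Zfp985 the shares of keratinocytes were 2.09% and 1.66% in Ctrl and 3.85% and 4.47% in TKO, and those of immune-like cells 4.82% and 4.84% in Ctrl and 1.77% and 3.37% in TKO.

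The promoters of Zfp982 and Zfp985 are shown because these genes rose the most with a promoter sequence at hand, and that of Zfp871 because it is the highest KRAB member and was not called. Each is 300 bases from RefSeq on GRCm38.p6, from 250 bases before to 50 after the annotated start, 5′ to 3′ in the direction of the gene, with CpG dinucleotides, the usual sites of DNA methylation, in capitals. Of the 132 members, 113 had a promoter in that table.
Zfp982, chr4:147442864-147443163, plus strand: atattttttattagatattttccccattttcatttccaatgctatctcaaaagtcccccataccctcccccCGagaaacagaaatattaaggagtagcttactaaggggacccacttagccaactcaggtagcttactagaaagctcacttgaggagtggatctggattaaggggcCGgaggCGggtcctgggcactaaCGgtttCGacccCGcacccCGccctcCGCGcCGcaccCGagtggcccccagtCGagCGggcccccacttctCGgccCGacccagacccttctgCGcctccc
Zfp985, chr4:147553027-147553326, plus strand: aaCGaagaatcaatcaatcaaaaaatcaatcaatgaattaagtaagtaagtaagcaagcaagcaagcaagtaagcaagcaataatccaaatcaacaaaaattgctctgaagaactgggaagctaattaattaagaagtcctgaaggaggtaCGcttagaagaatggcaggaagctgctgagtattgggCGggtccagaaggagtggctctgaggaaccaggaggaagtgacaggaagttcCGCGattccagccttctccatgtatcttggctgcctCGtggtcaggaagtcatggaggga
Zfp871, chr17:32788238-32788537, minus strand: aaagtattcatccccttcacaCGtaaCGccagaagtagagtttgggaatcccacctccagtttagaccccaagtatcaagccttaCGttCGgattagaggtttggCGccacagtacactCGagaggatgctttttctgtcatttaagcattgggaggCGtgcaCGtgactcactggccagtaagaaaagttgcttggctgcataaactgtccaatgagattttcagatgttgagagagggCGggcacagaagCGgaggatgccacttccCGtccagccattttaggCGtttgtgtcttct

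The Zfp982 promoter holds 16 CpGs, a number reached by 33.52% of the 27025 promoters in the table, and most of them lie in the part next to the start site. The Zfp985 promoter holds 6 (reached by 56.36% of promoters) and that of Zfp871 holds 12 (reached by 40.14%). Over the 113 members the median was 9 CpGs, beside 7 for all promoters, and the range was 2 to 54. The raised members with a promoter had a median of 9.5 and the lowered ones of 10.5, close to the members that were never called, at 9.

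The other raised members, Zfp809 on chromosome 9 and Zfp808 on chromosome 13, moved by less. Zfp809 encodes the KRAB protein known to bind the primer binding site of murine leukaemia virus and to recruit silencing to integrated retroviruses. It was at 10.6 and 11.2 CPM in Ctrl and at 23.6 and 16.9 CPM in TKO keratinocytes, with a log2 change of 0.87 ± 0.178 (SE) at an edgeR adjusted p of 0.0496. TKO replicate 1 was well above TKO replicate 2, and without it the change was 0.65 with an edgeR adjusted p of 0.0831. Zfp808, with 22 fingers, went from 18.2 and 17.8 CPM to 32.5 and 28.7 CPM, with a log2 change of 0.75 ± 0.113 (SE) at an edgeR adjusted p of 0.0254. Neither gene's groups overlapped. Leaving out Ctrl replicate 2 left 0 of the 5 members called, with an edgeR adjusted p of 0.119 for Zfp982, 0.194 for Zfp985, 0.296 for Zfp809 and 0.237 for Zfp808. Of these 4, leaving out Ctrl replicate 1 left Zfp982 called. The call of Zfp809 was lost in 7 of 12 alternatives, among them a replicate block and no filter on low counts, and that of Zfp808 in 3. The log2 changes without Ctrl replicate 2 were close to those with it, for example 2.01 for Zfp982 and 0.71 for Zfp808.

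Basal-like cells, the progenitor class in which the K14 promoter is active, gave the most calls. Of 112 tested members, 9 were raised and 4 lowered, beside 8.21% and 4.72% of all genes, so the share of members raised (8.04%) was again near the share of all genes. Without Zfp998, 8 were raised. At 5000 UMIs per cell 5 were raised and 1 lowered, and the shares of all genes in that fit are not given here. The 9 raised members were the 5 above and Zfp992, Zfp979, Zfp958 and Zfp934, which are named after their values were seen. Zfp992, a KRAB gene of chromosome 4 with 11 fingers, was at 23.5 and 19.9 CPM in Ctrl and at 33.3 and 34.1 CPM in TKO (log2 change 0.64 ± 0.130, SE, at an edgeR adjusted p of 0.023). Zfp979, also on chromosome 4, went from 12.8 and 12.4 to 18.7 and 19.7 CPM, and Zfp958 on chromosome 8 from 10.4 and 9.11 to 14.6 and 16.2 CPM. Zfp934 on chromosome 13 went from 5.25 and 5.84 to 10.0 and 8.57 CPM. In none of these 4 did the groups overlap, and each fell short of the threshold over all keratinocytes, with edgeR adjusted p between 0.052 and 0.0579. In basal-like cells their calls were lost in 2 (Zfp992) to 6 (Zfp934) of 14 alternatives. Zfp982 was at 4.2 and 4.07 CPM in Ctrl and 12.7 and 18 CPM in TKO basal-like cells (edgeR adjusted p = 0.00417), and stayed called with either library of either group left out, as did Zfp985. Beside Zfp998, which is counted in these totals but entered only through TKO, they were the raised calls left without Ctrl replicate 2, 3 in all, and without Ctrl replicate 1 there were 5.

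The 4 lowered members of basal-like cells were Zfp866 on chromosome 8, Zfp760 and Zfp799 on chromosome 17 and Zfp950 on chromosome 19, all KRAB genes with 12 to 17 fingers, and are likewise named after their values were seen. None of them was among the members whose genotype effect differed between classes. Zfp866 fell from 13.2 and 12.2 CPM to 7.66 and 7.30 CPM (log2 change −0.76 ± 0.161, SE, at an edgeR adjusted p of 0.0263). Zfp760 fell from 16.2 and 12.1 to 8.43 and 8.25 CPM, and Zfp799 from 16.2 and 13.6 to 9.17 and 9.59 CPM. Zfp950, the most abundant of the 4, fell from 37.6 and 32.0 to 23.4 and 25 CPM (log2 change −0.52 ± 0.132, SE, at an edgeR adjusted p of 0.046). The groups did not overlap, but the lowered calls numbered 0 without Ctrl replicate 1, 1 without Ctrl replicate 2 and 2 without TKO replicate 1.

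In hair follicle-like cells 9 of 110 tested members were raised and 0 lowered, beside 8.43% and 5.99% of all genes. Without Zfp998, 8 were raised. At 5000 UMIs per cell 1 member, Zfp982, was raised, and with components left uncorrected 5 were raised and 2 lowered. The shares of all genes in these fits are not given here. The 9 were Zfp998, Zfp982, Zfp985, Zfp809, Zfp808, Zfp992, Zfp979, Zfp958 and Zfp934, in sums over other cells of the same 4 embryos, so that the calls in these 2 classes are not independent. Zfp982 reached its highest level here, at 4.73 and 5.30 CPM in Ctrl and 20.3 and 21.7 CPM in TKO (log2 change 2.10 ± 0.170, SE, at an edgeR adjusted p of 0.0007). Zfp934 went from 4.99 and 6.20 to 12.6 and 11.8 CPM (log2 change 1.15 ± 0.196, SE, at an edgeR adjusted p of 0.0102). Zfp809 was at 11.0 and 10.5 CPM in Ctrl and at 24.1 and 17.2 CPM in TKO, and Zfp985 at 4.53 and 4.2 against 10.4 and 10.8 CPM. Over the alternatives the log2 change ranged from 0.43 to 1.18 for Zfp809, from 0.61 to 1.40 for Zfp985 and from 1.01 to 1.30 for Zfp934. Without Ctrl replicate 2 the raised calls fell to 3, Zfp982 and Zfp934 beside Zfp998, and without TKO replicate 1 they numbered 12. Of the lowered genes of basal-like cells, Zfp866 was at 14.3 and 12.2 CPM in Ctrl and at 8.22 and 9.0 CPM in TKO hair follicle-like cells, with an edgeR adjusted p of 0.075. Without TKO replicate 1, 2 members were lowered.

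Differentiating-like cells had fewer cells in TKO (179 and 372) than in Ctrl (750 and 490), and 1 of 103 tested members was raised and 0 lowered, beside 1.49% and 0.703% of all genes. DESeq2 called 4 raised and 0 lowered there, beside 3.65% and 1.93% of all genes. The member raised by edgeR was Zfp982, at 3.13 and 4.56 CPM in Ctrl and 11.5 and 15.2 CPM in TKO (log2 change 1.77 ± 0.289, SE, at an edgeR adjusted p of 0.0493). It lost the call without Ctrl replicate 1 (edgeR adjusted p = 0.347), Ctrl replicate 2 (0.469) or TKO replicate 2 (0.0681), with a replicate block (0.0947) and at 5000 UMIs per cell (0.156), and without TKO replicate 1 there were 2 raised members. Zfp985 was at 2.55 and 1.71 CPM in Ctrl and at 6.99 and 6.81 CPM in TKO, and Zfp809 at 9.40 and 10.4 against 25.4 and 18.7 CPM. Neither passed the test (edgeR adjusted p = 0.0765 and 0.0618), though neither pair of groups overlapped.

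**Figure D3:**
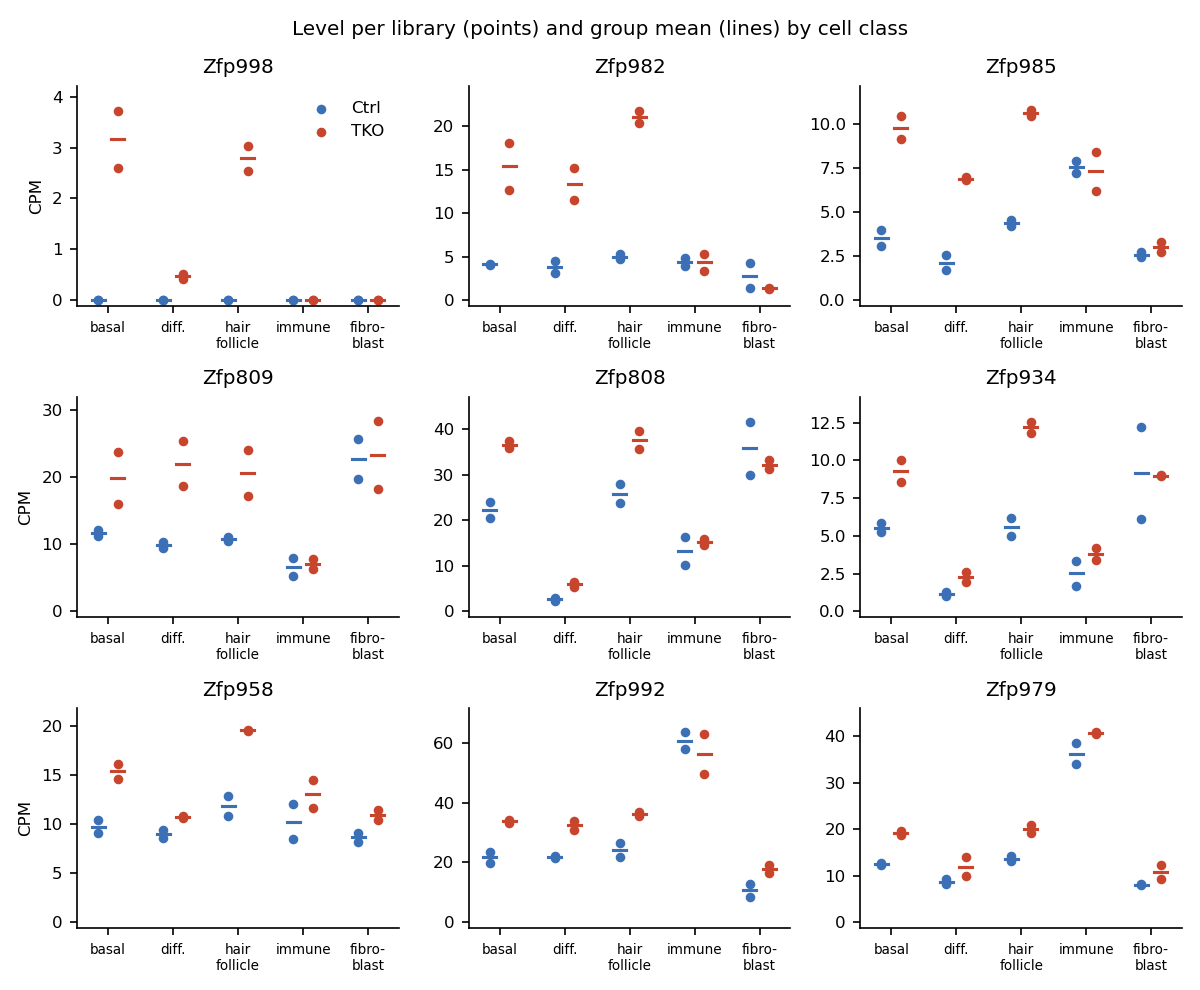
Level in CPM of the 9 members raised in basal-like cells, in each library (points) with the group mean (lines), for 5 cell classes. The 9 were chosen by their rise in basal-like cells, so the separation of their groups there follows from the choice. In all 9 panels the TKO points also lie above the Ctrl points in differentiating-like and hair follicle-like cells of the same embryos. Of all genes, 30.3% and 27.4% do so there. In immune-like and fibroblast-like cells the groups of Zfp982, Zfp985, Zfp809 and Zfp808 overlap, whereas those of Zfp992 in fibroblast-like cells do not.

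In cells that do not use the K14 promoter, taken from the same TKO embryos, no member passed the test. Over all non-keratinocytes 0 of 103 tested members were called by edgeR in either direction, 1 at an unadjusted p under 0.05, and 0 by DESeq2. Of all genes, 0% were called there by edgeR and 0.465% by DESeq2, and 8.12% had an unadjusted p under 0.05. These cells were fewer than the keratinocytes (209, 245, 533 and 588) and differed in make-up between genotypes, so smaller changes may have been missed. Why edgeR called no gene there was not tested. In immune-like cells Zfp982 was at 3.96 and 4.81 CPM in Ctrl and 5.37 and 3.40 CPM in TKO (log2 change −0.11, SE 0.447), and Zfp985 at 7.92 and 7.21 against 6.19 and 8.44 CPM (log2 change −0.11, SE 0.361). In fibroblast-like cells Zfp809 was at 25.6 and 19.8 CPM in Ctrl and 18.2 and 28.4 CPM in TKO (log2 change −0.01), above its keratinocyte level in Ctrl. Zfp808 was there at 29.9 and 41.6 CPM in Ctrl against 31.2 and 33.2 CPM in TKO. Zfp992 was the exception in size, at 8.54 and 12.9 CPM in Ctrl and 19.0 and 16.6 CPM in TKO fibroblast-like cells (log2 change 0.71, SE 0.340), which did not overlap and did not pass the test. Zfp998 had 0 UMIs in the immune-like and in the fibroblast-like cells of every library, and at 5000 UMIs per cell the 282 and 416 immune-like TKO cells allow a share of up to 1.06% and 0.721%. The difference between keratinocytes and these cells was not tested by a term of its own.

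Levels of other cell types moved with genotype in the keratinocyte sums. The 8 immune markers summed to 6.29 and 6.75 CPM in Ctrl and to 11.4 and 15.3 CPM in TKO keratinocytes, with 7 of 8 higher in both TKO libraries. The 6 muscle markers summed to 0.996 and 1.12 CPM in Ctrl against 79.0 and 22.7 CPM in TKO, with 5 of 6 higher, and the 8 Merkel markers to 194 and 176 against 22.4 and 15.4 CPM, with 8 of 8 lower. The 6 endothelial markers summed to 1.85 and 2.09 against 5.03 and 5.88 CPM, with 2 of 6 higher in both TKO libraries. The 6 Schwann cell markers summed to 58.7 and 58.7 against 35.8 and 45.4 CPM, with 2 higher and 2 lower in both, whereas the fibroblast, melanocyte and erythroid markers overlapped between groups. In hair follicle-like cells the muscle markers summed to 1.77 and 2.0 CPM in Ctrl and to 129 and 28.2 CPM in TKO. In basal-like cells they summed to 1.04 and 0.938 against 33.2 and 7.86 CPM (3 higher and 1 lower). The immune markers there summed to 2.62 and 4.38 against 6.85 and 8.61 CPM (6 higher and 0 lower). Of the 8 basal markers in basal-like cells 5 were lower and 0 higher, and of the 8 differentiating markers 5 were lower and 1 higher. Markers of the keratinocyte classes moved too, the 10 hair follicle markers in hair follicle-like cells from 2163 and 2277 to 1216 and 1816 CPM (7 lower and 1 higher), and the 8 differentiating markers in differentiating-like cells from 52845 and 48936 to 29729 and 40549 CPM (3 lower and 3 higher). The non-keratinocyte sums held 2950 to 5628 CPM of the immune markers. Zfp992 and Zfp979 were higher in immune-like cells (57.7 and 63.5, and 33.9 and 38.5 CPM in Ctrl) than in keratinocytes. Zfp982 in immune-like cells was below its TKO keratinocyte level in every library. For Zfp985 that held in CPM over all keratinocytes, but not in the shares of cells at 5000 UMIs given above, nor against TKO differentiating-like cells. The part of other cell types, or of a shift within the classes, in the raised values was not tested.

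Zfp771, a finger gene with no KRAB core on chromosome 7, was the only member whose genotype effect differed between basal-like and differentiating-like cells, 1 of 112 tested beside 6.65% of all genes. It was at 48.3 and 48.9 CPM in Ctrl and 59.6 and 48.5 CPM in TKO basal-like cells, which overlapped. In differentiating-like cells it was at 27.7 and 32.6 CPM in Ctrl and 26.4 and 19.4 CPM in TKO. The genotype effect in differentiating-like cells less that in basal-like cells was −0.68 ± 0.121 (SE, log2), at an edgeR adjusted p of 0.0146, and on library totals, without the TMM scaling that centres most genes at no change, −0.55 (edgeR adjusted p = 0.0488). The call was lost with any of the 4 libraries left out, at edgeR adjusted p of 0.0587 to 0.109. Between hair follicle-like and basal-like cells 0 of 112 members differed in genotype effect by edgeR (2 at an unadjusted p under 0.05), beside 0.783% of all genes.

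By position, all but Zfp998 and Zfp958 of the 9 members raised in basal-like cells lay in 3 runs, on chromosomes 4, 9 and 13. The largest run, 15 members on chromosome 4 between 145397209 and 147932882, all with a KRAB core, held Zfp982, Zfp985, Zfp992 and Zfp979, and thus 4 of the 9 raised. Over all keratinocytes 2 of its 12 tested members were raised, and 11 lay above 0, with a median log2 change of 0.61. In non-keratinocytes 6 of 8 lay above 0, with a median of 0.21 and 0 raised. Zfp984, the second most abundant of the run in Ctrl, was at log2 change 0.50 (edgeR adjusted p = 0.101), and Zfp933, at its far end, at −0.06 (edgeR adjusted p = 0.877). In the same interval 8 of 23 tested genes that are no members were raised in keratinocytes (34.8%). On all of chromosome 4, 5.24% of 1145 tested genes were raised. A run of 3 on chromosome 13 (62277700 to 62719013) held Zfp808 and Zfp934, with all 3 members above 0 in keratinocytes and a median of 0.75. The run of 13 on chromosome 17 (21787117 to 23086292) had a median of −0.08 in keratinocytes, with 4 of 13 above 0 and Zfp760 as the only call, in basal-like cells. The 6 members on chromosome 13 between 67186660 and 67835190 had 0 of 5 tested above 0, with a median of −0.41, and a run of 4 on chromosome 2 (177156498 to 177720294) had 0 of 4, with a median of −0.51. Zfp998 and Zfp958 stood in no run, with 46 members in all. The grouping depends on the distance allowed. At 200 kb, 4 of the 9 stood in no run, the run with Zfp808 and Zfp934 was not formed, and 60 members were in no run. At 1 Mb, Zfp998 fell in a run of 8 with a median of −0.40 in basal-like cells, and 38 members were in no run.

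**Figure D4:**
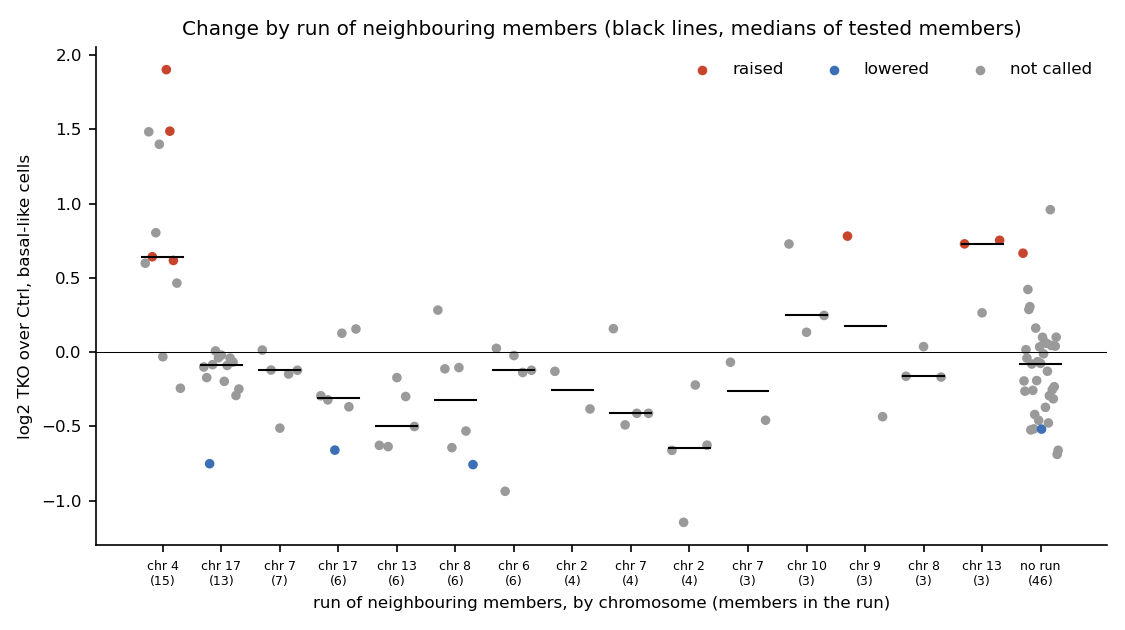
Log2 change of TKO over Ctrl in basal-like cells for the tested members of each of the 15 runs and of no run (black lines, medians), with raised members in red and lowered ones in blue. The run of 15 on chromosome 4 is centred at 0.64, whereas the median of members in no run is −0.08, and Zfp998, with 0 UMIs in Ctrl, is not drawn.

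Overlap between near-identical genes bears on these counts. The share of the last 500 bases that another gene also carries was 0.85% for Zfp982, 0.15% for Zfp809 and 1.0% for Zfp958. It was 24.4% for Zfp985, 24.7% for Zfp808, 30.7% for Zfp979, 31.1% for Zfp998 and 47.4% for Zfp934. For Zfp992 it was 79.8%, so its count is uncertain. Zfp982, Zfp809, Zfp808, Zfp979 and Zfp934 also overlap another annotated gene on the same strand. The same holds for Zfp866 and Zfp950, whereas Zfp760 and Zfp799 overlap none on their strand.

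A list of 20 genes of corepressors and silent chromatin was examined. It held Trim28, Setdb1, Atf7ip, Cbx1, Cbx3, Cbx5, Dnmt1, Dnmt3a, Dnmt3b, Uhrf1, Hdac1, Hdac2, Chd4, Kdm1a, Mphosph8, Tasor, Pphln1, Morc2a, Morc3 and Smarcad1. In keratinocytes 2 of the 20 were raised and 1 lowered, beside 4.21% and 2.55% of all genes. Of the 20, 16 lay above 0, with a median log2 change of 0.16, beside 9539 of 19969 genes and −0.02. Atf7ip, the partner that stabilises Setdb1 in the nucleus, went from 86.4 and 71.2 CPM to 207 and 247 CPM (log2 change 1.51 ± 0.160, SE, at an edgeR adjusted p of 0.011). Dnmt3b, a DNA methyltransferase, went from 8.23 and 9.61 to 20.5 and 15.6 CPM (log2 change 1.0 ± 0.175, SE, at an edgeR adjusted p of 0.035). The lowered gene was Setdb1 itself, which the knockout targets. Trim28, the scaffold bound by KRAB domains, was at 83.5 and 88.5 CPM in Ctrl and 108 and 88.0 CPM in TKO, which overlapped.

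Some members differed between the layers of Ctrl epidermis, at a smaller share than all genes. Between differentiating-like and basal-like Ctrl cells, 43 of 112 members were called, 13 higher and 30 lower in differentiating-like cells, beside 29.7% of all genes higher and 29.7% lower. These calls rest on an edgeR fit to 12 sums with library and class as terms, and the classes of a library come from the same embryo. The split between higher and lower depends on the scaling. TMM moved the median log2 difference of all genes by 0.28, and on library totals alone 3 members were higher and 47 lower, beside 20.7% and 40.9% of all genes. Zfp706 was 775 ± 51.2 CPM (SD, n = 2) in differentiating-like and 183 ± 1.12 CPM in basal-like Ctrl cells, a log2 difference of 2.36 (SE 0.079) after TMM scaling and of 2.08 on library totals alone. At the other end, Zfp808 was lower by 2.77 on the log2 scale in differentiating-like cells after TMM scaling, and by 3.06 on library totals (3.04 and 2.18 CPM against 23.9 and 20.4 CPM). Zfp827, a zinc finger protein known from telomere chromatin, was at 6.86 and 11.4 CPM in differentiating-like against 60.0 and 63.8 CPM in basal-like Ctrl cells. Zfp704 was at 48.7 and 68.4 against 230 and 206 CPM. Zfp934 (log2 difference −1.90), raised in TKO basal-like cells, was also low in differentiating-like cells. Zfp710 (0.79) and Zfp772 (0.90) were higher there, and are named after their values were seen. Without Ctrl replicate 1 the calls numbered 14, and without Ctrl replicate 2 they numbered 25.

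**Figure D5:**
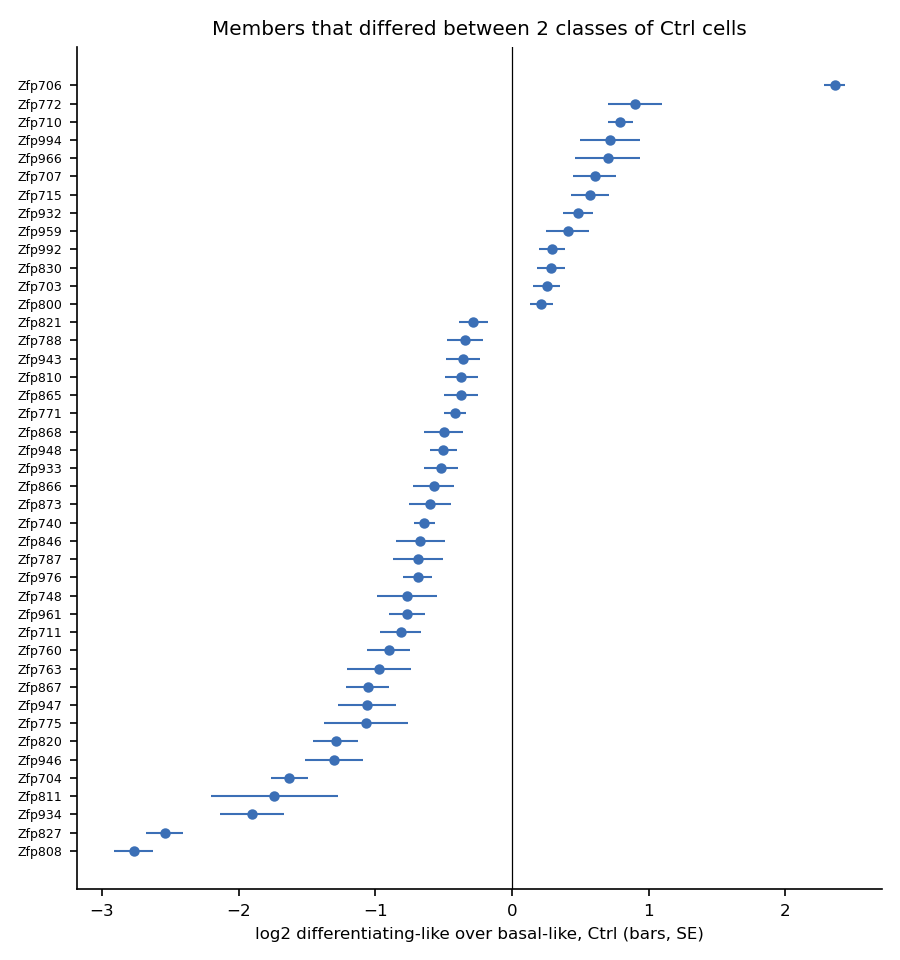
Log2 difference of differentiating-like over basal-like Ctrl cells (bars, SE) for the 43 members called after TMM scaling. Zfp706 stands highest at 2.36, and Zfp808 lowest at −2.77, with 30 members below 0.

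Between hair follicle-like and basal-like Ctrl cells, 9 of 112 members were called, 4 higher and 5 lower, beside 14.0% and 12.3% of all genes. On library totals alone 12 were higher and 3 lower, beside 20.4% and 7.42% of all genes. Zfp703, a co-repressor of the Nlz family, was higher by 1.47 (SE 0.090) on the log2 scale in hair follicle-like cells, and Zfp811 by 1.67 (SE 0.281). Zfp948 was lower by 0.80 (SE 0.10). Without Ctrl replicate 2 the calls numbered 2, and without Ctrl replicate 1 they numbered 5.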

How the data were processed

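Single-cell libraries were prepared by the authors with the 10x Genomics 3′ v3 kit from sorted cells. For each of 4 libraries the authors deposited UMI counts per gene and barcode as Cell Ranger's cell calling left them, not normalized. The header names Cell Ranger 7.1.0, and the submitters' processing notes name the build GRCm39. Which annotation release was used, and whether intronic reads were counted, is not given in the sources used here. The 19789 barcodes held 70749496 to 89655247 UMIs per library.

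Barcodes with fewer than 2000 detected genes or with 10% or more mitochondrial UMIs were removed, and the top Scrublet scores (scanpy 1.11.5) were removed as doublets at 0.8% per 1000 barcodes, because the automatic threshold marked only 2 cells in each Ctrl library. Before doublet removal 11221 cells remained. Components of 2000 variable genes were aligned by a Harmony implementation written for this purpose and clustered with Leiden at resolution 1, and clusters were named from marker lists with the suffix "-like". Genes that differed between genotypes at a first fit, and every Zfp gene, were left out of the second clustering of keratinocytes.

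UMIs were summed per library and class, since cells are not replicates, and tested with edgeR 4.0.16 in R 4.3.3 (quasi-likelihood, TMM, filterByExpr) over all genes. With 2 embryos per genotype, p-values measure the spread between those embryos. The script was tested on simulated data. Alternatives were DESeq2 1.42.0, RLE size factors, no filter, a replicate block, a crossed block and library totals without TMM (both added after seeing the data), doublets kept, 3000 genes, 5000 UMIs per cell, resolution 0.5, components left uncorrected and each library left out.

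Fingers were counted as C, any 2, C, any 12, H, any 3 to 5, H, and KRAB cores as E, W, 5 to 16 residues, L, Y, 2 residues, V, M, in the longest translated coding sequence of GENCODE vM39. Named were members called in keratinocytes, the 6 highest in Ctrl, members whose genotype effect differed between classes and members at 0 in Ctrl with at least 10 UMIs in TKO. The members and lists were chosen with earlier results of these data known.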

Additional observations from a re-analysis of the deposited data

Results flagged for a closer look

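Zfp771 was singled out because its genotype effect differed between 2 classes of keratinocytes. The log2 change of TKO over Ctrl was 0.16 (SE 0.121) in basal-like and −0.47 (SE 0.188) in differentiating-like cells, and neither passed the test within its class (edgeR adjusted p = 0.436 and 0.276). The effect in differentiating-like cells less that in basal-like cells was −0.68 (SE 0.121, edgeR adjusted p = 0.0146). The TKO differentiating-like cells numbered 179 and 372, and the level was lower in both TKO libraries than in both Ctrl libraries of that class. In hair follicle-like cells the change was 0.04 (SE 0.119).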

How the results depend on the processing

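The counts of members called depended on single libraries, as 2 embryos per genotype allow. With each library left out in turn, the members raised numbered 0 to 6 in keratinocytes (5 with all libraries), 3 to 8 in basal-like (9), 0 to 2 in differentiating-like (1) and 3 to 12 in hair follicle-like cells (9). Lowered members then numbered 0 to 4 in basal-like (4) and 0 to 2 in hair follicle-like cells (0), members differing in genotype effect between differentiating-like and basal-like cells 0 (1), and members differing between Ctrl classes 14 to 42 for differentiating-like (43) and 2 to 10 for hair follicle-like cells (9). With DESeq2, 10 were raised and 2 lowered in keratinocytes (7.79% and 5.58% of all genes) and 4 of 103 raised in differentiating-like cells (3.65% of all genes). With no filter, differentiating-like cells had 5 raised and 2 lowered members and 5 that differed in genotype effect from basal-like cells. At 5000 UMIs per cell there were 5 raised and 1 lowered in basal-like, 0 raised in differentiating-like and 1 raised in hair follicle-like cells, with 25 and 3 differing between Ctrl classes. With components left uncorrected there were 2 raised in differentiating-like and 5 raised and 2 lowered in hair follicle-like cells, and 3 that differed in genotype effect. On library totals without TMM, an alternative added after seeing the data, 15 members differed between hair follicle-like and basal-like Ctrl cells (12 higher, 3 lower). The cause of these differences was not tested, beyond the lower counts that thinning leaves. Where no share of all genes stands beside a count from an alternative, whether all genes changed alike is not shown.

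The same replicate number did not pair the libraries: deviations from the group means correlated at −0.26 in keratinocytes, −0.18 in basal-like, −0.24 in differentiating-like and −0.13 in hair follicle-like cells. With a replicate block, 3 members were raised in keratinocytes and 0 in differentiating-like cells. The crossed pairing, chosen after seeing the data, gave 10 raised and 4 lowered in keratinocytes, 9 lowered in basal-like and 4 raised in differentiating-like cells. The labels used here do not give the sex of each library, and its part in these deviations was not tested.

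Zfp982 and Zfp985 in basal-like cells and Zfp982 in hair follicle-like cells were called under every alternative run. Of the named members, the changes of Zfp706 and Zfp771 in keratinocytes, neither called, turned sign. With each library left out, Zfp706 (−0.11 with all) ranged from −0.33 to 0.12, above 0 without Ctrl replicate 1 or TKO replicate 1, and Zfp771 (0.09) from −0.082 to 0.26, below 0 without TKO replicate 1. At 5000 UMIs per cell Zfp771 was at −0.053. At full depth 115 of the 132 members could be tested in keratinocytes, and 107 at 5000 UMIs per cell.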
